A study of Mus musculus with 25 samples.

Results

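The comparison described here sets whole injured spinal cord taken 3 months after a contusion against the same tissue taken 1 month after it. Its members are the 6 tissue libraries of a series of 25, chosen by their labels alone, with 3 libraries at 1 month and 3 at 3 months. All 6 came from C57BL/6 mice given a moderate contusion of 60 kdyn at thoracic level T9, and each replicate pooled tissue from 3 mice. The tissue was the epicentre, the segment under the impact, and total RNA was sequenced. No sham or uninjured tissue was analysed here, so a fall between the times does not say how close a gene came to its uninjured level. The age and sex of the mice are not given in the sources used here, and time after injury and ageing cannot be told apart.

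After a contusion the blood-borne and resident phagocytes of the cord clear myelin and dead cells, taking up lipid and protein that is broken down in lysosomes by cathepsins and glycosidases. Astrocytes around the lesion become reactive, raise their intermediate filaments and secreted protease inhibitors, and wall off a core of fibroblasts, vessels and phagocytes. Both reactions pass into a chronic state over weeks to months, and the interval measured here lies within that late phase.

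Deposited values were read counts per gene, and levels are given as CPM, the count scaled to library size, after adjustment by the trimmed mean of M values (TMM). Total counts were 15.42, 17.5 and 18.37 M in 1-month replicates 1 to 3 and 26.19, 27.14 and 23.55 M in 3-month replicates 1 to 3, so depth moved with time, and its part in the results was not tested. Defining markers of cord tissue were present in every library: Gfap at 5881 to 9056 CPM, the myelin gene Mbp at 11912 to 16966 CPM and the synaptic gene Snap25 at 1176 to 2073 CPM. The first principal component held 54.9% of the variance and separated the times. The second held 26.4% and separated 3-month replicate 1 (-32.1) from 3-month replicates 2 (24.4) and 3 (9.74), so that library is named wherever it decides a value.

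Of 19652 genes tested, 1315 were higher at 3 months (6.69%) and 1574 were lower (8.01%) at an adjusted p under 0.05 (edgeR's quasi-likelihood test, Benjamini-Hochberg over all genes), which is what "called", "rose" and "fell" mean below. By at least 2-fold, 225 rose and 262 fell, and the median log2 change over all tested genes was -0.0025. The number of calls changed when single libraries were left out. It was 305 without 1-month replicate 1, 573 without 1-month replicate 2, 1478 without 1-month replicate 3, 1877 without 3-month replicate 2 and 734 without 3-month replicate 3, against 2889 with all 6. Without 3-month replicate 1 it was 5980, which included 2872 of the 2889. Genes named below kept their call with each library left out in turn, under another scaling, with no filter on low counts and with DESeq2 where these gave a value, unless the text says otherwise. In whole tissue, fewer cells of a type and less RNA per cell cannot be told apart.

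Genes of phagocytes loaded with lipid and debris fell as a group. Of 29 tested genes of phagocyte activation and lipid handling, 24 fell and 0 rose, with a median log2 change of -1.15, against the 8.01% of all genes that fell. Ch25h, which makes 25-hydroxycholesterol, stood at 30.7, 30.7 and 26.8 CPM at 1 month and at 5.73, 4.49 and 4.29 CPM at 3 months. All 3 later libraries were far below all 3 earlier ones, a 6.07-fold fall (log2 change -2.60 ± 0.13 SE, edgeR adjusted p = 0.00072). Cst7, a cathepsin inhibitor of activated microglia, was at 69.1, 96.2 and 69.6 CPM at 1 month and at 19.1, 13.1 and 16.9 CPM at 3 months. Its later libraries too all lay below the earlier ones, which 19.8% of all tested genes showed, with 17.6% above (log2 change -2.26 ± 0.18, adjusted p = 0.0020).

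Receptors and secreted products of the same cells moved alike. Trem2, a lipid-sensing receptor of microglia and macrophages, fell from 309 ± 43.7 to 99.5 ± 17.5 CPM (mean ± SD, n = 3 libraries each), a log2 change of -1.64 ± 0.15 (edgeR adjusted p = 0.0029). Its signalling partner Tyrobp fell by 1.69 ± 0.18 on the log2 scale. Spp1, which encodes the secreted protein osteopontin, was at 979, 1119 and 883 CPM at 1 month and at 312, 278 and 378 CPM at 3 months. Gpnmb, a glycoprotein of lipid-laden macrophages, was at 734, 992 and 729 CPM and then at 276, 225 and 299.8 CPM. In both genes each later library lay under every earlier one, and both fell by 1.62 on the log2 scale, with SEs of 0.13 and 0.15. Cd68, a lysosomal membrane protein used to mark phagocytes, fell from 283 ± 40.1 to 86.9 ± 15.2 CPM (log2 change -1.70 ± 0.15). The 5 tested members without a call were Atp6v0d2, Cd9, the cholesterol exporter genes Abca1 and Abcg1, and Cd36, whose log2 change was 0.56. The 24 calls became 15 without 1-month replicate 1, and the median ran from -1.23 to -0.962 over the 6 left-out libraries.

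**Figure D1:**
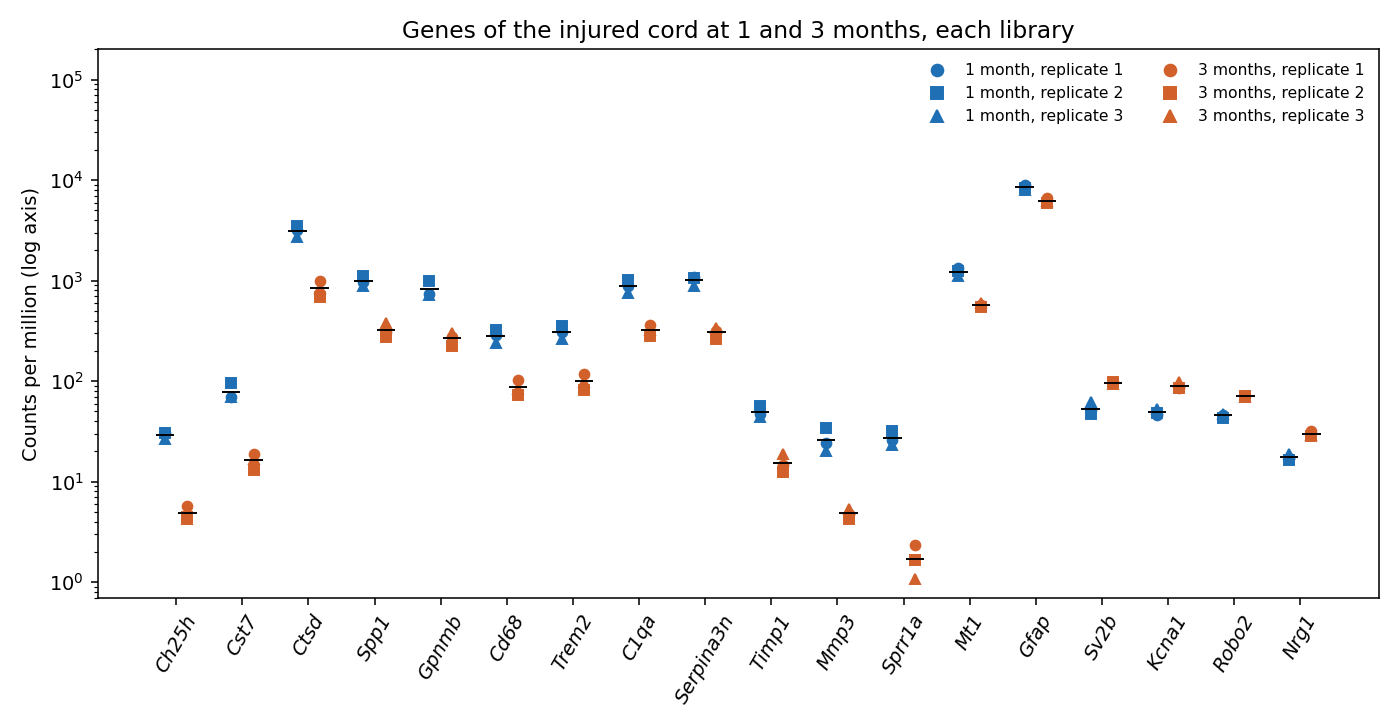
Levels of 18 genes in each of the 6 tissue libraries, in CPM on a log axis, with 1 month in blue, 3 months in orange, a marker shape for each replicate and a black bar for the group mean. The 3 libraries of 1 time lie close together and apart from the other time, down to Sprr1a at 1.08 to 2.37 CPM at 3 months.

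Lysosomal genes fell as a group. Of 32 tested, 25 fell and 0 rose, with a median log2 change of -0.612. The summed level of the list was 18850, 20830 and 17670 CPM at 1 month and 11540, 9861 and 10580 CPM at 3 months. Ctsd, the aspartic protease cathepsin D, fell from 3168, 3469 and 2741 CPM to 985, 691 and 846 CPM, a 3.72-fold fall with no overlap (edgeR log2 change -1.89 ± 0.15, adjusted p = 0.0020). The cysteine protease gene Ctsb fell from 3698 ± 373 to 1592 ± 161 CPM (log2 change -1.22 ± 0.11). Grn, which encodes the lysosomal protein progranulin, fell by 1.61 ± 0.15 on the log2 scale. Smaller falls were called in the lysosomal membrane protein genes, at -0.49 ± 0.07 for Lamp1, lost without 1-month replicate 1, and at -0.26 ± 0.07 for Lamp2. The call of Lamp2 stood just inside the threshold (adjusted p = 0.048) and was lost under another scaling, with no filter and without any library other than 3-month replicate 1. Both tested proton pump subunits of the list, Atp6v0d1 (0.02) and Atp6v1a (0.30), were not called. The 25 calls became 14 without 1-month replicate 1.

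Promoters of 3 of the falling lysosomal genes are shown because many lysosomal genes share a regulatory word, the E-box CACGTG with flanking bases that is bound by factors of the TFEB family. The 8 letters CACGTGAC, or their reverse complement GTCACGTG, were searched in the 250 bases before each RefSeq start (GRCm38.p6). A gene can have several such starts, and matches are in capitals. The lines are cathepsin D (Ctsd, chr7:142387828-142388077, minus strand), cathepsin A (Ctsa, chr2:164833523-164833772, plus strand) and Lamp1 (chr8:13158911-13159160, plus strand), each 5′ to 3′ on the gene's strand.
Ctsd: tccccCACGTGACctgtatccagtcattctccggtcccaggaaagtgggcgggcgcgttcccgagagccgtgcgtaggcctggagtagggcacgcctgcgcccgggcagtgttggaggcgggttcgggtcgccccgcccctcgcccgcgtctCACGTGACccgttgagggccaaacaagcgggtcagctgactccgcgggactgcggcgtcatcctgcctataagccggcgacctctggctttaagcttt
Ctsa: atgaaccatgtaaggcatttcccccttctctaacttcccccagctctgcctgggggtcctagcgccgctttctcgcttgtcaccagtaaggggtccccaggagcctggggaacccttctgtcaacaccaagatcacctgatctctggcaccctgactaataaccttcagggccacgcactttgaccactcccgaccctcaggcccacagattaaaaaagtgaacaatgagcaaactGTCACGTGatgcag
Lamp1: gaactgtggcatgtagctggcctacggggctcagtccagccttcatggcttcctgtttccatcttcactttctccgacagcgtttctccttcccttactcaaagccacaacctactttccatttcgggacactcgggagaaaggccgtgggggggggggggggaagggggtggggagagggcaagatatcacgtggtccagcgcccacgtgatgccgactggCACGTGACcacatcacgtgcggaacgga
Ctsd holds 2 matches and Ctsa and Lamp1 hold 1 each. Counted from its first base, the match lies 14 bases before the RefSeq start in Ctsa and 28 in Lamp1. By the GENCODE M21 coordinates the Ctsa gene starts at 164832873, so its window lies inside the gene. The Ctsd window lies mostly inside its gene, which starts at 142388038. The Lgmn window (102439093 to 102439342) lies inside its gene, which starts at 102439813 on the minus strand. Of the 32 lysosomal genes, 26 matched a promoter entry and 8 of these (30.8%) held the word. Among the 20 matched genes that fell, 7 did (Ctsa, Ctsd, Gla, Glb1, Lamp1, Lgmn and Naglu), and the eighth holder, Sgsh, had no call (log2 change -0.22, edgeR adjusted p = 0.12). Of all genes in the promoter set, 2.11% held it, and of the genes tested here 3.38%. A match describes the sequence and is not evidence of a bound site. Among the 7 called holders the change ran from -1.89 in Ctsd through -1.31 in Naglu, -1.23 in Ctsa and -0.96 in Glb1 to -0.34 in Gla, whose call was lost with no filter and without any library other than 3-month replicate 1.

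Genes of resident microglia fell too. Of 20 tested homeostatic microglia genes, 16 fell and 0 rose (median log2 change -0.747). The chemokine receptor gene Cx3cr1 and the membrane protein gene Tmem119, both used as microglia markers, fell less than the median phagocyte gene, at -0.70 ± 0.10 and -0.59 ± 0.11 (edgeR adjusted p = 0.0085 and 0.016). Both lost the call without 1-month replicate 1 (adjusted p = 0.054 and 0.084), and Tmem119 also without 1-month replicate 2 or 3-month replicate 3. P2ry12, the purine receptor of resting microglia, was at 28.9, 35.8 and 36.8 CPM and then at 18.6, 28.6 and 25.0 CPM, which did not pass (adjusted p = 0.086). Aif1, the microglial actin-binding protein known as Iba1, fell from 40.9, 49.1 and 38.0 CPM to 21.1, 20.02 and 20.3 CPM (log2 change -1.06 ± 0.10). The list's 16 calls became 10 without 1-month replicate 1.

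Complement and chemokine genes fell in part. The 3 chains of C1q, the starter of the classical complement pathway, fell together, with log2 changes of -1.46 ± 0.13 for C1qa, -1.56 ± 0.16 for C1qb and -1.65 ± 0.14 for C1qc. C1qa was at 884, 1017 and 763 CPM at 1 month and at 366, 279 and 321 CPM at 3 months. The central component C3, by contrast, was at 1384, 1383 and 1081 CPM and then at 1085, 897 and 938 CPM, with overlapping groups and no call (edgeR adjusted p = 0.064). In all, 6 of 18 tested complement genes fell and 0 rose, a count that was 15 calls (13 lower, 2 higher) without 3-month replicate 1. Ccl3 and Ccl4, chemokines that draw monocytes and T cells, fell furthest among 29 chemokine genes. Ccl3 went from 21.4, 26.6 and 19.7 CPM to 5.39, 3.76 and 4.50 CPM, and Ccl4 from 14.2, 18.2 and 15.1 CPM to 3.02, 2.26 and 3.13 CPM. Every later library lay below every earlier one, with log2 changes of -2.31 ± 0.17 and -2.50 ± 0.17 (adjusted p = 0.0020 for both). Ccl2, the main monocyte attractant, was not called (log2 change -0.36).

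Of the chemokine list 8 genes fell and 0 rose. The count was 2 without 1-month replicate 1 or 2, 5 without 1-month replicate 3, 3 without 3-month replicate 3 and 13 without 3-month replicate 1. Among 26 cytokine and NF-kB target genes 10 fell and 0 rose (median log2 change -0.461). Csf1, the growth factor of microglia and macrophages, fell from 197 ± 10.5 to 126 ± 8.76 CPM (log2 change -0.65 ± 0.07). Il1a fell by 1.33 ± 0.21 on the log2 scale but lost its call without 1-month replicate 1 (edgeR adjusted p = 0.061) or 2. Tnf (-0.23) and Il1b (0.59) were not called. The 10 calls of this list became 2 without 1-month replicate 1 or 2, 6 without 1-month replicate 3 or 3-month replicate 3, and 17 without 3-month replicate 1. Class II antigen presentation genes fell in 4 of 17 tested and interferon-stimulated genes in 3 of 35, with 0 higher in either list, and the interferon share was close to the 8.01% of all genes that fell. Without 3-month replicate 1 those counts were 8 calls (7 lower, 1 higher) and 7 calls. They were 1 and 0 without 3-month replicate 3, 3 and 1 without 3-month replicate 2, and 2 and 0 without 1-month replicate 1. Without 1-month replicate 2 they were 2 and 1, and without 1-month replicate 3 they were 2 and 3.

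**Figure D2:**
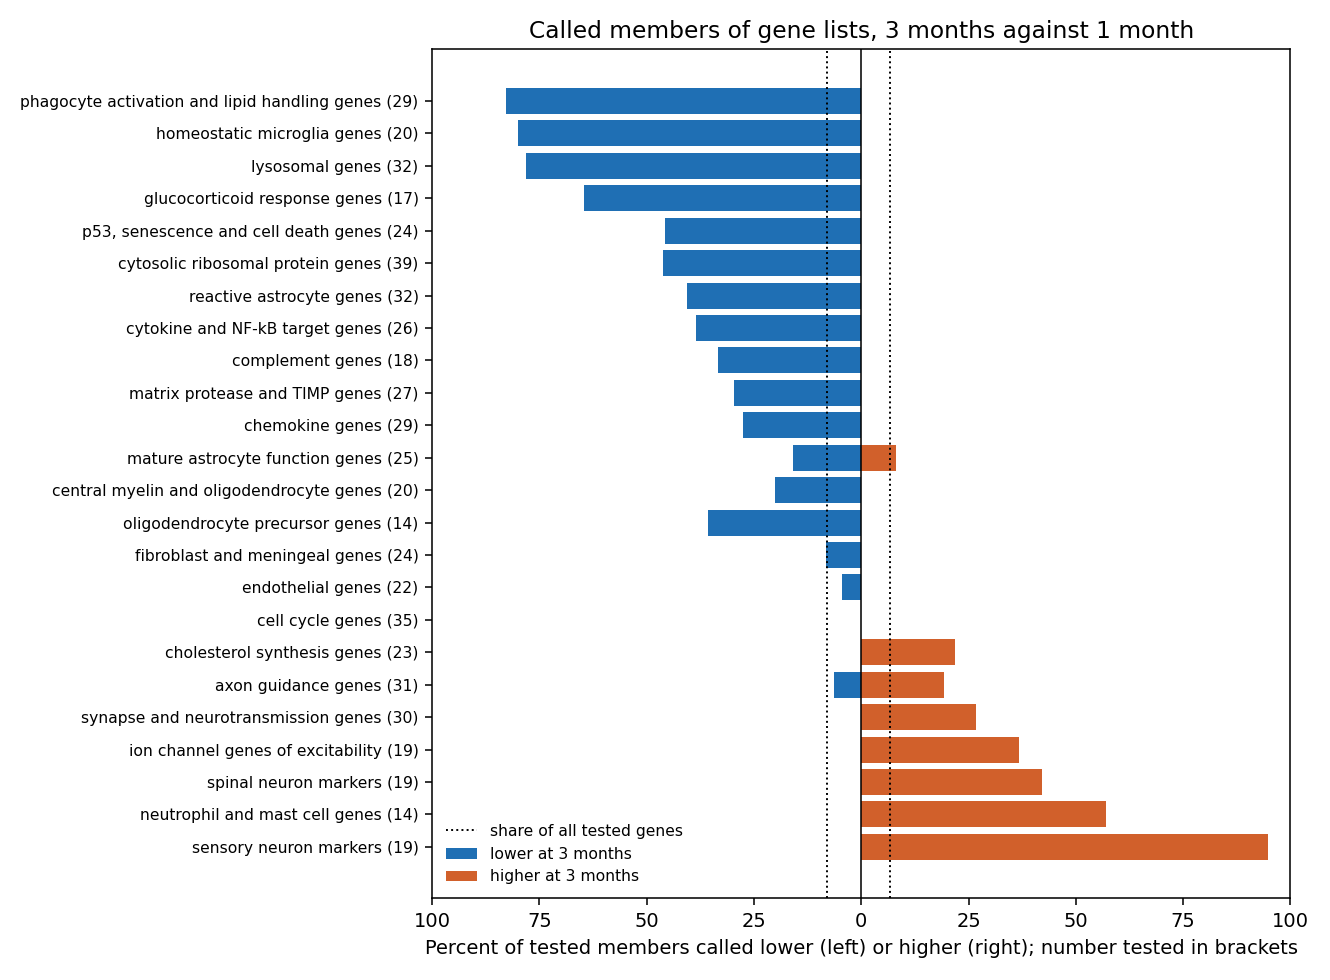
Share of the tested members of 24 gene lists that were called lower at 3 months (blue, to the left) or higher (orange, to the right), in percent, with dotted lines at the shares over all tested genes (8.01% lower, 6.69% higher). Phagocyte, microglia and lysosomal lists reach furthest to the left, with 24 of 29, 16 of 20 and 25 of 32 members lower, and the sensory neuron list furthest to the right, with 18 of 19 higher.

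Reactive astrocyte genes fell unevenly. Of 32 tested, 13 fell and 0 rose (median log2 change -0.489). Serpina3n, a secreted protease inhibitor, was at 1096, 1070 and 893 CPM at 1 month and at 314, 265 and 341 CPM at 3 months, a 3.33-fold fall without overlap (edgeR log2 change -1.73 ± 0.12, adjusted p = 0.0020). Ptx3, a secreted pattern-recognition protein, fell from 20.1 ± 0.84 to 5.99 ± 1.26 CPM, and Timp1, an inhibitor of matrix metalloproteases, from 49.3 ± 6.53 to 15.4 ± 3.19 CPM. The small heat shock protein gene Hspb1 fell 2.83-fold. Several of these genes are also made by fibroblasts, phagocytes or endothelium, and which cells lost the RNA was not tested.

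The filament genes changed less. Gfap stood at 9056, 8378 and 8012 CPM at 1 month and at 6598, 5881 and 6180 CPM at 3 months. The groups did not overlap, yet the fall was 1.36-fold (edgeR log2 change -0.45 ± 0.09, adjusted p = 0.018), and the call was lost without 1-month replicate 1 (adjusted p = 0.107), 1-month replicate 2, 3-month replicate 2 or 3-month replicate 3. Vim, the filament gene vimentin, fell from 1351 ± 123 to 743 ± 130 CPM (log2 change -0.86 ± 0.14, adjusted p = 0.011), a call lost without 1-month replicate 1 (adjusted p = 0.067) or 2. Lcn2, an iron-binding protein of reactive astrocytes and neutrophils, was at 154, 175 and 131 CPM at 1 month and at 206, 36.8 and 55.4 CPM at 3 months. The later libraries disagreed, with 3-month replicate 1 above all others (adjusted p = 0.49), and without that library Lcn2 was lower at 3 months by a log2 change of -1.74 (adjusted p = 0.0011). The 13 calls of the list were 5 without 1-month replicate 1, 6 without 1-month replicate 2 and 8 without 3-month replicate 3. Without 3-month replicate 1 there were 23 (22 lower, 1 higher).

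Of 25 tested genes of mature astrocyte function 4 fell and 2 rose, against 8.01% lower and 6.69% higher among all genes. Aldh1l1, a folate enzyme that marks astrocytes, fell from 104 ± 4.43 to 76.7 ± 1.63 CPM (edgeR log2 change -0.44 ± 0.06, adjusted p = 0.0061). The water channel gene Aqp4 was at 1189, 1163 and 1053 CPM and then at 857, 1074 and 1090 CPM, with overlap and no call (adjusted p = 0.31). The glutamate transporter genes Slc1a2 (0.10) and Slc1a3 (0.01) and the potassium channel gene Kcnj10 (-0.02) were not called. The list had 1 call without 1-month replicate 1 or 3-month replicate 3, 3 without 1-month replicate 2 or 3, and 9 without 3-month replicate 1. Zeb2, the transcription factor the series centres on, was at 135, 149 and 125 CPM and then at 117, 146 and 147 CPM, a log2 change of 0.01 ± 0.11 (adjusted p = 0.98). Zeb2os, the RNA read from the opposite strand inside Zeb2 (chromosome 2, 45110707 to 45114087, GRCm38), was at 14.9, 17.1 and 12.9 CPM and then at 12.2, 12.7 and 13.7 CPM (log2 change -0.21 ± 0.12, adjusted p = 0.28). The groups of both genes overlapped, and because they overlap on opposite strands and the counting's use of strand is not given, reads of one may be counted in the other.

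More calls were made among matrix protease and TIMP genes than among collagen chains. The median log2 change was -0.361 in the first list and -0.542 in the second. Mmp3, the matrix protease stromelysin, went from 24.2, 33.9 and 20.4 CPM to 4.81, 4.30 and 5.38 CPM (edgeR log2 change -2.44 ± 0.20, adjusted p = 0.0022). The plasminogen activator gene Plau fell by 1.58 ± 0.18 on the log2 scale. Of 27 protease and TIMP genes 8 fell and 0 rose, counts that were 4 calls without 1-month replicate 1 and 5 without 1-month replicate 2. Without 3-month replicate 1 there were 15 calls (12 lower, 3 higher). Of 19 collagen chains only Col16a1 was called, from 166 ± 14.8 to 98.1 ± 5.85 CPM. Col1a1, the main chain of fibrous scar, was at 424, 800.3 and 354 CPM and then at 493, 165 and 362 CPM, with the spread within a time larger than the difference (adjusted p = 0.35). Without 3-month replicate 1, 9 collagen chains and 15 of 24 fibroblast and meningeal genes were lower, against 1 and 2 with it. The fibroblast count was 0 without 1-month replicate 1 or 2 and 1 without 1-month replicate 3 or 3-month replicate 3.

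Glucocorticoid-responsive and clock genes fell in part, while heat shock chaperone genes had calls in both directions. Of 17 glucocorticoid-responsive genes 11 fell and 0 rose (median log2 change -0.537). The metal-binding proteins Mt1 and Mt2 fell from 1231 ± 110 to 579 ± 26.8 CPM and from 826 ± 123 to 378 ± 21.3 CPM, with log2 changes of -1.09 ± 0.09 and -1.13 ± 0.12. Fkbp5 (-0.22) and Tsc22d3 (-0.09) were not called. Of 18 clock genes 7 fell, among them Dbp (log2 change -1.20 ± 0.14), Per1 (-0.85 ± 0.11) and Per2, while Arntl, which peaks in the opposite phase, was at 0.52 without a call. No source used here gives the hour of tissue collection. The injury-induced transcription factor gene Atf3 fell from 30.3, 41.3 and 32.1 CPM to 16.9, 13.1 and 13.8 CPM (edgeR log2 change -1.24 ± 0.15, adjusted p = 0.0048). The glucocorticoid count was 5 without 1-month replicate 1 and 6 without 1-month replicate 2 or 3-month replicate 3, and the clock count was 4 without 1-month replicate 1 or 2. Of 16 heat shock chaperone genes 4 rose and 2 fell (median log2 change 0.284), and their summed level was 4759 to 5206 CPM at 1 month and 5515 to 6087 CPM at 3 months. That list had 1 call without 1-month replicate 1 or 2, 2 without 3-month replicate 2 or 3, 4 without 1-month replicate 3 and 8 without 3-month replicate 1.

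The steepest fall of all named genes was that of Sprr1a (chromosome 3, 92483952 to 92485895, GRCm38), a small proline-rich protein that injured neurons make while axons regrow. It stood at 26.0, 32.3 and 23.5 CPM at 1 month and at 2.37, 1.68 and 1.08 CPM at 3 months, a 15.8-fold fall (edgeR log2 change -3.98 ± 0.26, adjusted p = 0.0020). Cd5l, a secreted protein of macrophages, followed at 34.4, 42.4 and 25.4 CPM and then 2.75, 1.82 and 3.59 CPM, and the acute-phase gene Saa3 at 25.9, 21.9 and 19.2 CPM and then 2.22, 1.86 and 4.38 CPM. None of these 3 genes had overlapping groups. Among regeneration and growth factor genes 8 of 22 fell and 3 rose, and Gap43, a growth-cone protein, was not called (log2 change -0.02). Nrg1, the ligand neuregulin that acts on Schwann cells and oligodendrocytes, rose from 17.1, 16.4 and 19.0 CPM to 31.8, 28.5 and 29.3 CPM (log2 change 0.77 ± 0.09, adjusted p = 0.0042). That list had 3 calls without 1-month replicate 1, 5 without 1-month replicate 2 and 6 without 3-month replicate 3.

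Genes of spinal neurons and their synapses rose in part. Of 19 spinal neuron markers 8 rose and 0 fell (median log2 change 0.384), against 6.69% of all genes. Sv2b, a synaptic vesicle protein, rose from 53.5 ± 7.52 to 97.0 ± 2.48 CPM (log2 change 0.86 ± 0.10). The axonal potassium channel genes Kcna1 and Kcna2 rose from 49.2 ± 3.17 to 89.6 ± 7.13 CPM and from 205 ± 17.7 to 342 ± 29.7 CPM. Robo2, a receptor for the axon guidance protein Slit, was at 46.2, 43.5 and 47.3 CPM and then at 71.3, 72.1 and 70.0 CPM, and Efna5, a repulsive guidance ligand, rose by 0.71 ± 0.09 on the log2 scale. The libraries of a time lay close together in these genes, and the groups overlapped in none of these 5.

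Of 10 motor neuron markers 5 rose and 0 fell (median log2 change 1.06, and 0.809 without 3-month replicate 1). Isl2, Isl1, Mnx1 and Calca were among the 5. Their list had a summed level of 321 to 426 CPM at 1 month and of 968, 484 and 547 CPM in 3-month replicates 1, 2 and 3. When any 1-month replicate or 3-month replicate 3 was left out, 0 were called. Mnx1 also lost its call with DESeq2 and without 3-month replicate 2. Like the sensory neuron list below, this list peaked in 3-month replicate 1, and the part of sensory neurons in its rise was not tested. Many neuronal genes had no call. Snap25 was at 1371, 1176 and 1553 CPM and then at 1411, 2073 and 1795 CPM, with overlap and no call (edgeR adjusted p = 0.16). The neuronal nuclear protein gene Rbfox3 was at 0.28 without a call, though its later libraries all lay above the earlier ones. The neuron marker Nefl did rise, from 655 ± 84.1 to 968 ± 37.8 CPM without overlap (log2 change 0.56 ± 0.10, edgeR adjusted p = 0.014). The call of Nefl was lost without 1-month replicate 1 or 3-month replicate 3. Synapse genes rose in 8 of 30 tested, ion channel genes in 7 of 19 and axon guidance genes in 6 of 31, with 0, 0 and 2 lower. These counts changed when single libraries were left out. Over the 6 left-out libraries the median log2 change ran from 0.322 to 0.497 for neuron markers and from 0.252 to 0.429 for synapse genes. For ion channels it ran from 0.237 to 0.457 and for axon guidance from 0.0728 to 0.188. Without 1-month replicate 1 the calls were 1 for neuron markers, 1 for synapse genes, 3 for ion channels and 2 for axon guidance, and without 3-month replicate 1 they were 15, 22, 16 and 15. Without 1-month replicate 2 they were 2, 2, 5 and 4, and without 3-month replicate 3 they were 2, 2, 5 and 6.

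Large rises were called in markers of peripheral sensory neurons, whose cell bodies lie in the ganglia beside the cord and not in it. Of 19 tested markers 18 rose and 0 fell (median log2 change 3.61). Scn10a (chromosome 9, 119608456 to 119719322, GRCm38), the sodium channel of pain-sensing neurons, was at 0, 4.14 and 5.60 CPM at 1 month and at 241, 33.7 and 86.8 CPM at 3 months. The ATP receptor gene P2rx3 was at 1.39, 2.59 and 2.31 CPM and then at 47.4, 10.8 and 19.4 CPM. Both were high in all 3 later libraries, highest in 3-month replicate 1 and lowest in 3-month replicate 2. Their log2 changes were 5.16 ± 0.96 and 3.61 ± 0.59 (edgeR adjusted p = 0.016 and 0.011), and both calls were lost without 1-month replicate 1 or 2. The summed level of the list was 142 to 169 CPM at 1 month and 1247, 334 and 533 CPM in 3-month replicates 1, 2 and 3. Scn9a, a sodium channel of sensory and sympathetic neurons, rose more evenly, from 11.4, 10.4 and 11.1 CPM to 58.6, 32.1 and 39.9 CPM (log2 change 1.99 ± 0.22, adjusted p = 0.0038). The list had 0 calls without 1-month replicate 1 or 2, 5 without 1-month replicate 3, 9 without 3-month replicate 3 and 18 without 3-month replicate 1.

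Markers of blood cells, muscle and bone differed between the later libraries, and not all peaked in the same one. Of 14 tested neutrophil and mast cell genes 8 rose and 0 fell (median log2 change 3.80), and their summed level was 83.6 to 128 CPM at 1 month and 3031, 365 and 349 CPM in 3-month replicates 1, 2 and 3. S100a8, a calcium-binding protein of neutrophils, was at 9.80, 21.9 and 16.8 CPM and then at 559, 70.1 and 65.8 CPM (edgeR log2 change 3.84 ± 0.92, adjusted p = 0.033). Its rise in replicates 2 and 3 was smaller than that in replicate 1, and without replicate 1 the log2 change was 2.06 (adjusted p = 0.0012). DESeq2 gave no adjusted p for S100a8. Elane, an enzyme of granulocyte precursors, was at 0.26 to 0.75 CPM at 1 month and at 33.4, 2.26 and 3.63 CPM. The list had 0 calls when any 1-month replicate was left out, 5 without 3-month replicate 3 and 13 without 3-month replicate 2, and both genes lost their calls when any 1-month replicate was left out. Elane also lost it without 3-month replicate 3. Of 8 tested erythrocyte genes 4 rose and 0 fell (median log2 change 0.843), against 6.69% of all genes that rose. The list had 0 calls without 1-month replicate 1 or 3 or 3-month replicate 3, 1 without 1-month replicate 2 and 7 without 3-month replicate 2. Erythrocyte genes summed to 508 to 675 CPM at 1 month and to 1212, 498 and 1078 CPM, so that the sum in 3-month replicate 2 lay below that of every earlier library. Cartilage and bone genes summed to 201 to 249 CPM at 1 month and to 294, 196 and 240.0 CPM, with overlapping groups and 1 of 16 called, higher. Skeletal muscle genes summed to 75.2 to 101 CPM at 1 month and to 94.9, 118 and 624 CPM, high in 3-month replicate 3 only, and 0 of 14 were called. That count was 11, all higher, without 3-month replicate 1, and 0 without any other library. The median log2 change was 2.42, and 0.165 without 3-month replicate 3. The part of these cells and tissues in the rises of neuronal genes, such as Scn9a, and in those of the blood cell lists was not tested. The falls of phagocyte, microglia and lysosomal genes were as large without 3-month replicate 1, with medians of -1.18, -0.828 and -0.694.

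**Figure D3:**
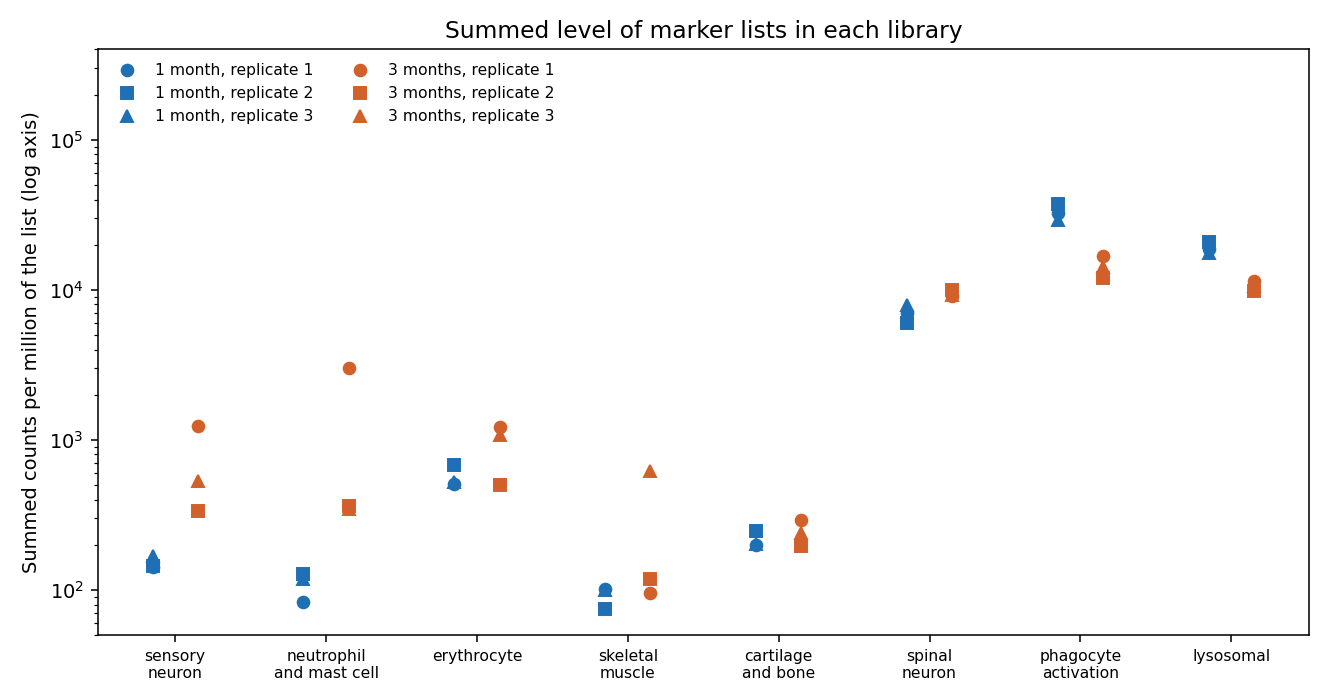
Summed CPM of 8 marker lists in each tissue library, on a log axis, with 1 month in blue, 3 months in orange and a marker shape for each replicate. The neutrophil and mast cell list reaches 3031 in 3-month replicate 1 and the skeletal muscle list 624 in 3-month replicate 3, while phagocyte and lysosomal sums separate the times in all 6 libraries.

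Myelin and precursor genes fell in part. Mbp fell from 16966, 15091 and 16312 CPM to 11912, 12920 and 12079 CPM (edgeR log2 change -0.39 ± 0.09, adjusted p = 0.026). Without 1-month replicate 1 or 3, or 3-month replicate 2 or 3, the call of Mbp was lost. Of 20 central myelin genes 4 fell and 0 rose, and of 14 precursor genes 5 fell and 0 rose, against 8.01% lower among all tested genes. Cspg4, the NG2 proteoglycan of precursors and pericytes, fell from 62.4 ± 5.37 to 33.9 ± 5.82 CPM (log2 change -0.88 ± 0.13) and lost its call without 1-month replicate 1 (adjusted p = 0.057), while Pdgfra (-0.30) and Olig2 (-0.08) were not called. Both lists had 0 calls without 1-month replicate 1. Without 1-month replicates 2 or 3 or 3-month replicate 3 the myelin list had 2, 1 and 2 calls, and without 1-month replicate 2 or 3-month replicate 3 the precursor list had 1. Without 3-month replicate 1 the precursor list had 8 (7 lower, 1 higher).

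Lipid synthesis genes had calls in both directions. Of 22 fatty acid and myelin lipid genes 3 rose (Scd1, Elovl6 and Elovl7) and 3 fell, Elovl1 and Gal3st1 among them, with a median log2 change of 0.0532. The list had 1 call, that of Scd1, without 1-month replicate 1, and 3 calls, those of Scd1, Elovl7 and Elovl1, without 1-month replicate 2 or 3-month replicate 3. Gal3st1 also lost its call without 1-month replicate 3. Scd1, the desaturase that makes monounsaturated fatty acids, went from 407, 366 and 424 CPM to 689, 618 and 656 CPM (edgeR log2 change 0.71 ± 0.08, adjusted p = 0.0040), with every later library above every earlier one. Of 23 cholesterol synthesis genes 5 rose and 0 fell (median log2 change 0.332), a count that was 0 without 1-month replicate 1, 1-month replicate 2 or 3-month replicate 3, and 8 without 3-month replicate 1. Ribosomal protein genes shifted slightly, with 18 of 39 lower and 0 higher and a median log2 change of -0.284. Rps29 fell from 278 ± 8.08 to 207 ± 6.11 CPM, and without 1-month replicate 1 its call was lost (adjusted p = 0.059) and the list had 0 calls. The list had 1 call without 1-month replicate 2 or 3-month replicate 3, 6 without 1-month replicate 3, 2 without 3-month replicate 2 and 31 without 3-month replicate 1. Ribosomal protein genes have near-identical pseudogene copies, so their counts are uncertain. Among p53, senescence and cell death genes 11 of 24 fell and 0 rose, including the stress cytokine gene Gdf15 (log2 change -1.93 ± 0.23), counts that were 3 without 1-month replicate 1, 1-month replicate 2 or 3-month replicate 3, 7 without 1-month replicate 3 and 6 without 3-month replicate 2.

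Cell cycle, T cell, endothelial and pericyte lists are read against the 8.01% lower and 6.69% higher among all genes. Cell cycle genes had 0 of 35 called by edgeR and 0 by DESeq2, with 2 at an unadjusted p under 0.05 (median log2 change 0.236, and -0.122 without 3-month replicate 1). T and NK cell genes had 1 of 21 lower, endothelial genes 1 of 22 lower and pericyte and smooth muscle genes 3 of 18 lower and 1 higher. Without 3-month replicate 1 these counts were 2, 9 (8 lower, 1 higher) and 13 (11 lower, 2 higher) calls. The cell cycle list had 5 calls, all higher, without 3-month replicate 2. The T and NK cell list had 0 calls without any other library. The endothelial list had 0 without 1-month replicate 1 and 3 (2 lower, 1 higher) without 3-month replicate 2. The pericyte list had 0 without 1-month replicate 1 or 2 or 3-month replicate 3 and 2 without 1-month replicate 3. The plot of list medians shows how far each median moved when a library was left out.

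**Figure D4:**
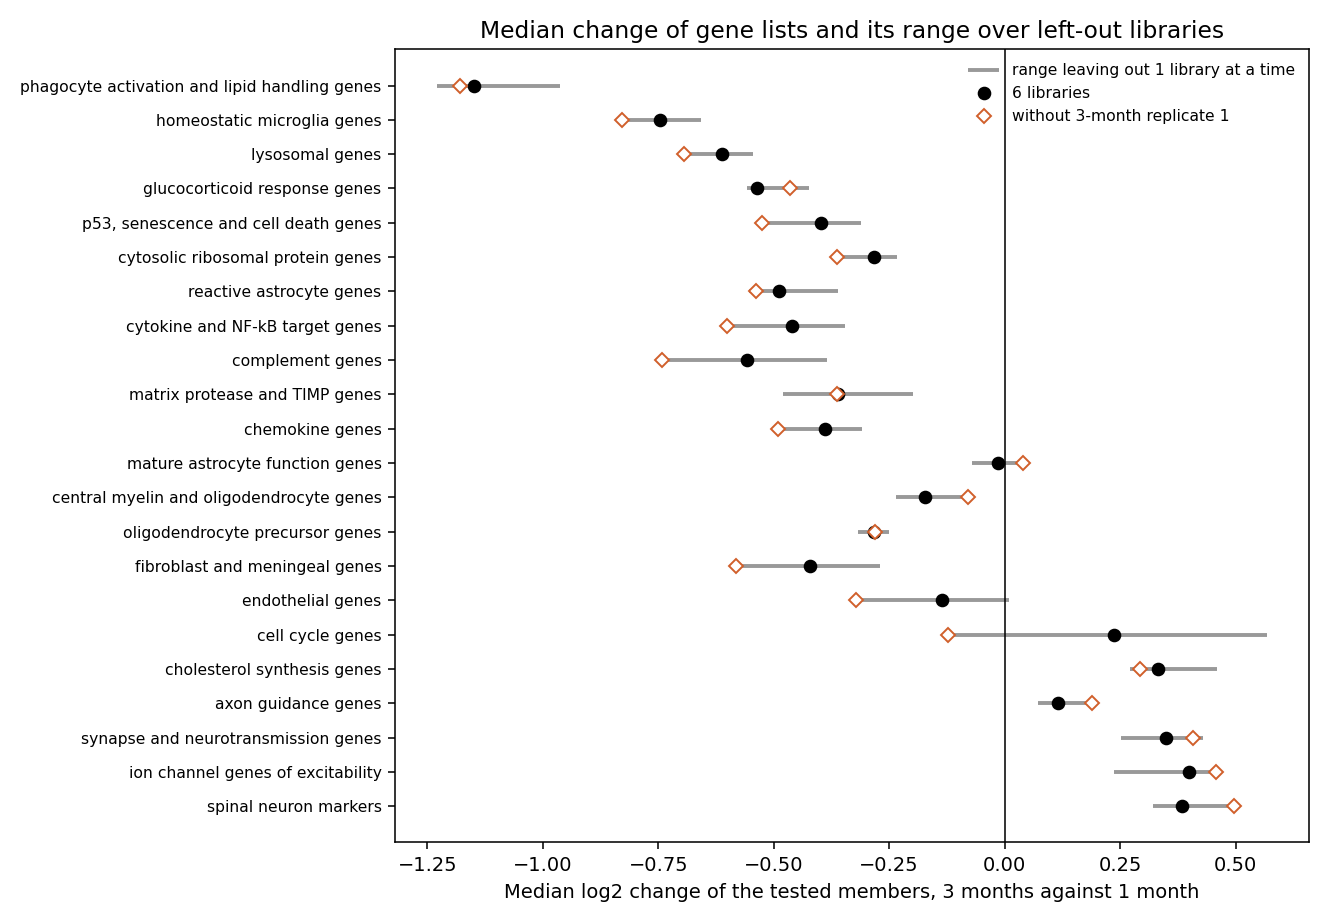
Median log2 change of the tested members of 22 gene lists, 3 months against 1 month, with all 6 libraries (black points), without 3-month replicate 1 (open orange diamonds) and over the 6 fits that each leave out 1 library (grey bars). The phagocyte list ranges from -1.23 to -0.962 and stays left of 0, while the cell cycle list ranges from -0.122 to 0.569 and crosses it.

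Among long non-coding genes 109 of 4213 tested rose and 167 fell, both smaller shares than the 6.69% higher and 8.01% lower among all tested genes. Among those above 5 CPM whose groups did not overlap, the largest falls were in Gm42418 (chromosome 17, 39846958 to 39848788, GRCm38), LOC108167755, whose call was lost without 1-month replicate 1 or 2, and Gm26902. Gm42418, which overlaps ribosomal RNA sequence in the mouse genome, was at 554, 661 and 520 CPM at 1 month and at 150, 70.7 and 70.1 CPM at 3 months (edgeR log2 change -2.58 ± 0.30, adjusted p = 0.0048). Lars2, the mitochondrial leucine tRNA ligase, fell in the same libraries, from 1081, 1278 and 1044 CPM to 351, 160 and 125 CPM (log2 change -2.42 ± 0.36), and lost its call without 1-month replicate 1 (adjusted p = 0.056). In Gm42418, Lars2 and LOC108167755, 3-month replicate 1 was the highest of the later libraries. Their shares of all counts moved together. Lars2, Gm42418 and LOC108167755 held 0.106, 0.0542 and 0.028% in 1-month replicate 1 and 0.0127, 0.00714 and 0.00318% in 3-month replicate 3. The part of ribosomal RNA reads in these falls was not tested. Gm26902 fell from 12.98, 14.49 and 11.98 CPM to 3.36, 3.21 and 2.54 CPM. It overlaps Ch25h on the opposite strand (chromosome 19, 34474808 to 34481546 against 34473778 to 34475164). The counting's use of strand is not given, so reads of Ch25h may be counted in Gm26902. Gm17167 rose from 1.32, 1.27 and 0.989 CPM to 6.84, 6.57 and 7.59 CPM (log2 change 2.55 ± 0.17, adjusted p = 0.0020). Gm15446 (chromosome 5, 109923400 to 109943936, GRCm38), annotated as protein-coding and 1 of 2 entries with that symbol, was at 0.53, 0.46 and 0.88 CPM and then at 15.8, 23.2 and 18.4 CPM, high in all 3 later libraries (edgeR log2 change 4.91 ± 0.26, adjusted p = 0.00072). The other 2 largest non-coding rises, Gm13425 and Gm33701, peaked in 3-month replicate 1 at 27.3 and 11.8 CPM and lost their calls when any 1-month replicate was left out or without 3-month replicate 3. Gm13425 overlaps the gene Prdm12 on the opposite strand, with the same limit on its counts.

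Cells labelled as astrocytes and sorted from the injured cord at the same times moved the other way in the phagocyte genes. These cells carried the genotype GFAP-Cre-/+:R26-tdT-/+, in which tdTomato marks cells whose Gfap promoter has driven Cre and their progeny. They were sorted for tdTomato from the digested, myelin-depleted epicentre of mice with the same contusion, with 3 libraries at 1 month and 2 at 3 months, 3 mice in each. Of 23259 genes tested over both tables, the change in tissue differed from that in sorted cells in 3256 (14%), above it in 1879 (8.08%) and below it in 1377 (5.92%). The fit used 1 spread per gene for tissue and sorted libraries together, so its p-values are less certain than those of the tissue fit. Of 29 phagocyte genes the change in tissue lay below that in sorted cells in 25 and above it in 0, of 20 homeostatic microglia genes in 18 and 0, and of 32 lysosomal genes in 25 and 1. In sorted cells 18, 17 and 19 of these genes rose and 0 fell, against 6.02% of all genes higher and 8.48% lower, with medians of 0.616, 0.957 and 0.565. C1qa, a gene of microglia, stood at 625 to 2182 CPM in the cells labelled as astrocytes, and the part of other cell types in these differences was not tested.

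Single genes show the opposite movement. In the joint scaling Gpnmb was at 759, 1021 and 755 CPM in tissue at 1 month and at 289, 235 and 314 CPM at 3 months, while in sorted cells it was at 661, 790.1 and 1008 CPM and then at 1691 and 2001 CPM. The later sorted libraries were above all earlier ones, the reverse of tissue (difference of log2 changes -2.77 ± 0.26, edgeR adjusted p = 0.00079). C1qa was at 625, 844 and 977 CPM in sorted cells at 1 month and at 1439 and 2182 CPM at 3 months, a difference of -2.59 ± 0.28. Ctsd differed by -2.46 ± 0.29. Ribosomal protein genes shared this pattern, with 35 of 39 lower in tissue relative to sorted cells and 26 higher in sorted cells themselves. Reactive astrocyte genes differed in 9 of 32, all with tissue below, among them Serpina3n (-1.52 ± 0.30, adjusted p = 0.0073), whose sorted level was 158, 167 and 154 CPM and then 93.6 and 187 CPM. Gfap changed by -0.43 in tissue and -0.49 in sorted cells, a difference of 0.06 ± 0.14 that was not called (adjusted p = 0.86). Cell cycle genes went the other way, with 22 of 35 above in tissue: 27 of 35 fell in sorted cells, such as Mki67, a proliferation marker, from 210.0, 187 and 191 CPM to 58.0 and 34.4 CPM. In tissue Mki67 was at 10.6, 15.5 and 11.8 CPM and then at 41.4, 10.9 and 35.5 CPM. Cholesterol synthesis genes were above in tissue in 10 of 23 and below in 0, with 6 lower in sorted cells.

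**Figure D5:**
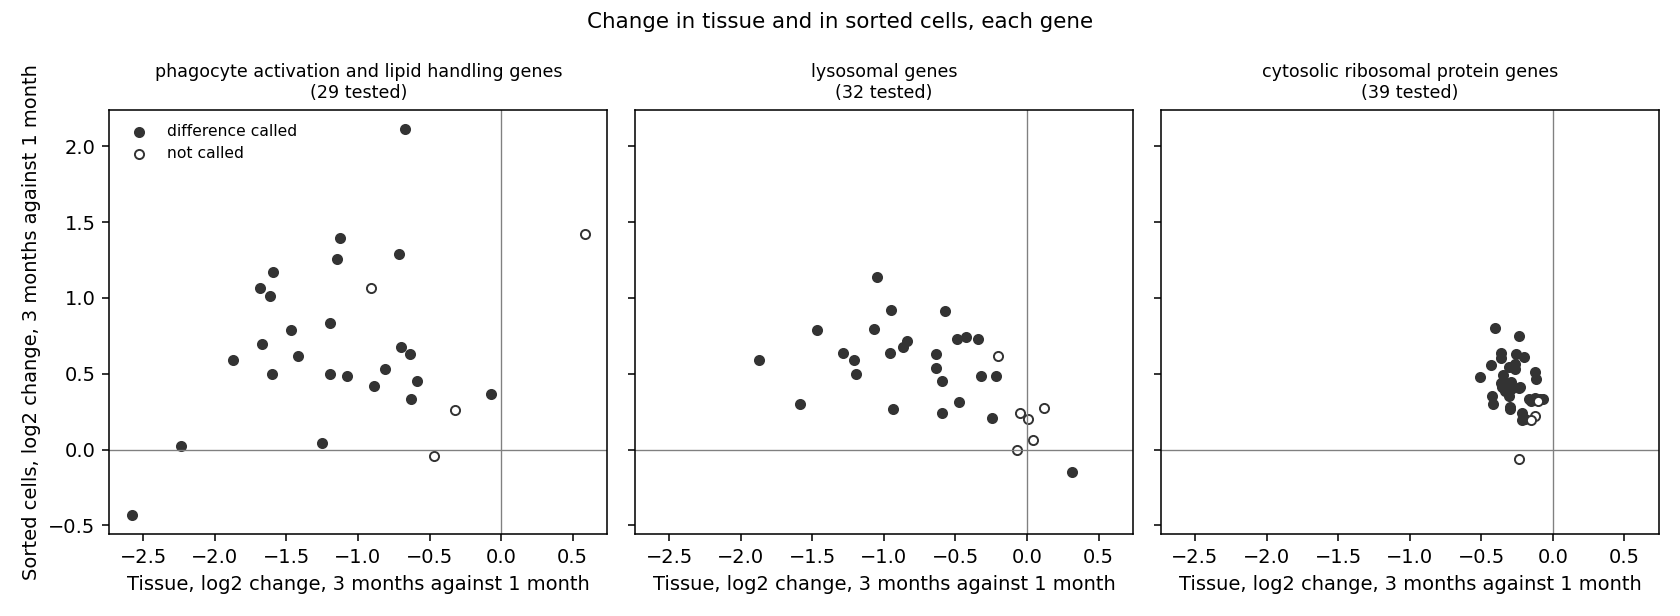
Log2 change from 1 to 3 months in whole tissue (horizontal) and in sorted cells (vertical) for each tested gene of 3 lists, filled where the difference between the changes was called (edgeR adjusted p under 0.05) and open where it was not. Most points lie at the upper left, lower in tissue and higher in sorted cells, with 25 of 29, 25 of 32 and 35 of 39 genes called with tissue below sorted cells.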

How the data were processed

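Total RNA from 6 pooled tissue samples was sequenced with a directional library kit, per the labels' protocols. The deposited tables hold raw read counts per gene made by the authors. The submitters' processing notes name FastQC, TopHat2 2.1.0, Cufflinks 2.2.1, DESeq2 and mm10 without roles, and the counting program, annotation and strand setting are not given in the sources used here. Genes passing edgeR's filterByExpr (minimum count 10) were fitted with edgeR 4.0.16 (TMM, quasi-likelihood test, limma 3.58.1, R 4.3.3), with p-values adjusted by Benjamini-Hochberg over all tested genes and a threshold of 0.05. The interaction fit added 5 sorted libraries. Scripts were tested on simulated data. In these the tissue fit recovered 94% of 2-fold and 100% of 8-fold changes, with 14 false calls among 208. The interaction fit recovered 4% of 2-fold and 84% of 8-fold differences. Alternatives were RLE scaling, no filter, DESeq2 1.42.0, a replicate block and each library left out. Replicate numbers did not pair the samples, with correlations of -0.219, -0.341 and -0.0232 between same-numbered deviations.

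The members and lists were chosen with earlier results of these data known. Named genes were the 12 largest rises and 12 largest falls among called genes without overlap and with at least 5 CPM in the higher group, up to 4 called genes per list by p (where fewer than 2 were called, also the 2 most abundant members), all cell type markers, a fixed panel, and the 3 largest long non-coding changes each way. For the interaction they were the 5 largest differences each way, and after values were seen the 5 largest each way among genes with at least 1 CPM in every group were added, because 7 of the first had a sorted group at 0. A further 27 genes were named after their values were seen: Tyrobp, Atp6v0d2, Cd9, Abca1, Abcg1, Cd36, Lamp1, Lamp2, Atp6v0d1, Atp6v1a, Ctsa, Gla, Lgmn, Naglu, Sgsh, C3, Ccl2, Tnf, Il1b, Slc1a2, Slc1a3, Kcnj10, Fkbp5, Tsc22d3, Arntl, Gap43 and Mki67. Of 18196 Ensembl IDs tested, 18162 matched the GENCODE M21 annotation used for coordinates. Some results are not reported here.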

Additional observations from a re-analysis of the deposited data

Results flagged for a closer look

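In 10 genes the change from 1 to 3 months in tissue differed from that in sorted cells by edgeR's test of the difference (log2 tissue change minus log2 sorted change, Benjamini-Hochberg over 23259 genes, 3 and 3 tissue and 3 and 2 sorted libraries). Tissue lay below sorted cells in 5 of them. The differences were -4.12 ± 0.57 (SE) for the acute-phase gene Saa3, -3.66 ± 0.44 for the protease gene Klk8 and -3.62 ± 0.66 for the apolipoprotein gene Apoc4. They were -3.42 ± 0.76 for the macrophage gene Cd5l and -3.29 ± 0.25 for the chemokine gene Ccl3. In the joint scaling Ccl3 was at 22.1, 27.3 and 20.4 CPM in tissue at 1 month and at 5.64, 3.94 and 4.71 CPM at 3 months, while in sorted cells it was at 116, 130.03 and 126 CPM and then at 200.5 and 299 CPM. Tissue lay above sorted cells in the other 5. These were Avil, an actin-binding protein of sensory neurons (4.14 ± 1.02), the lipid receptor gene Lpar3 (3.88 ± 0.86), Dgkh (3.06 ± 0.71), the synaptic vesicle gene Sv2c (2.97 ± 0.34) and Gm44089 (2.76 ± 0.61). The call of Avil was lost without 1-month tissue replicate 1 (adjusted p = 0.055) or 2 (0.052) or sorted 3-month replicate 3 (0.068), that of Lpar3 without sorted 3-month replicate 3 (0.052) and that of Cd5l without sorted 3-month replicate 1 (0.11). Of these 10, Saa3, Klk8 and Apoc4 came from the rule of the 5 largest differences each way, and the other 7 were added after values were seen. The rule's other 7 genes had a sorted group at 0, so only levels are given. In sorted cells P2rx3, Abcc12, Hoxd1, Chrna3 and Nwd2 were at 0 in both 3-month libraries and averaged 0.76, 0.94, 0.33, 0.34 and 0.25 CPM at 1 month. Tmem125 and Gm30627 were at 0 in all 3 sorted 1-month libraries and averaged 1.11 and 0.22 CPM at 3 months.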

How the results depend on the processing

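Leaving out 1 library at a time gave 305 to 5980 called genes, against 2889 with all 6, with 68 to 2877 higher and 237 to 3103 lower. By at least 2-fold, 17 to 353 were higher and 125 to 423 lower, 77 to 568 genes of the lists were called, and the tissue against sorted difference was called in 1929 to 5120. The lowest total came without 1-month replicate 1 and the highest without 3-month replicate 1, and for the difference from sorted cells without 1-month tissue replicate 2 and sorted 3-month replicate 1. The cause was not tested. The replicate numbers did not pair the samples, and the fit with a replicate block called 506 genes, 167 higher and 339 lower, 57 and 159 of them by at least 2-fold, with 99 list genes and 1701 differences between tissue and sorted cells. RLE scaling, no filter and DESeq2 kept the total within 1.5 times, at 2799, 2870 and 3338. Of 201 named genes called, 63 were called under every alternative.

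Changes that turned sign had no call with all 6 libraries. Over the left-out libraries their log2 changes ran from -0.0555 to 0.105 for Zeb2, -0.0119 to 0.171 for Flt1, -0.612 to 0.755 for Comp, -0.0398 to 0.0585 for Mcm4, -0.894 to 0.0844 for Prx, -0.143 to 0.985 for Mzb1, -0.194 to 0.394 for Pecam1 and -0.383 to 0.118 for Cdh5. For the rest they ran from -0.3002 to 0.246 for Cldn5, -0.381 to 0.492 for Acta2, -0.0247 to 0.0475 for Atp6v0d1, -0.606 to 0.116 for Tnf, -0.0259 to 0.0813 for Slc1a3, -0.0833 to 0.0614 for Kcnj10 and -0.0496 to 0.00703 for Gap43. Mcm4 was at 0.00127 with RLE, 0.01 with no filter and 0.00303 with DESeq2, Kcnj10 at 9.41e-05 with no filter, and Cldn5 at -0.0217 with the block. Without 3-month replicate 1, Cldn5 and Acta2 were called lower. Total counts of 15.42 to 27.14 M limit the precision of genes with few counts, such as Elane at 0.26 to 0.75 CPM at 1 month.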
